A study of Homo sapiens with 12 samples.

Results

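A breast cancer line selected in lapatinib, SKR6LR, was compared with the line it came from, SKR6, across all genes that the array could name. Gene expression was measured on 3′ expression arrays, and each gene was represented by the probe set that matched only that gene and had the highest mean over all 12 arrays. This left 19775 genes of the same 19775 in the whole series, and 6 of its 12 arrays, 3 of SKR6LR and 3 of SKR6. Both lines go back to SKBR-3, a human line from breast cancer with amplification of HER2 (the gene ERBB2). SKR6 was taken from SKBR-3 by flow sorting for high HER2 and had no drug selection. SKR6LR is SKR6 after several months in lapatinib at concentrations that rose from 0.2 to 5 µM. The remaining arrays were of SKR6-Vector, which is SKR6 with an empty retroviral vector under puromycin selection, and of SKR6CA, which carries a constitutively active p65 subunit of NF-kB in that vector and was selected in the same way. All cells were grown for 48 hours before RNA was taken.

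The groups have limits as models. SKR6LR is 1 selected population, and the labels call the 3 cultures of each line biological replicates without saying whether they were derived separately, so p-values measure the spread between cultures of 1 population. The growth protocol keeps cells under a name that no sample carries in 0.2 µM lapatinib. If these are SKR6LR, the effect of the drug at harvest and that of the selection cannot be told apart. In bulk RNA, fewer cells of a kind and less RNA per cell cannot be told apart either.

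Lapatinib blocks the kinases of EGFR and HER2, receptors that drive growth through the PI3K and ERK pathways. HER2-amplified tumours are often of luminal character, and the mammary gland has a luminal layer that makes secretory proteins and a basal layer that contracts and anchors to the basement membrane. Type I and type III interferons act through JAK kinases and a STAT and IRF9 complex, which binds a short element in the promoters of interferon-stimulated genes.

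Values are log2 expression values, and a difference of 1 is a 2-fold change. A gene was called when its adjusted p in limma was under 0.05. The array medians lay between 5.74 and 5.77. SKR6LR arrays correlated with SKR6 arrays at 0.914 to 0.928 across genes, against at least 0.991 within SKR6LR and 0.999 within SKR6. The replicate SD, as a root mean square over genes, was 0.209 in SKR6LR and 0.0958 in SKR6. For actin, the array's 3′ control probe set exceeded the 5′ one by 2.32 in SKR6LR replicate 3 and by 1.03 to 1.73 elsewhere, a gap that grows as RNA degrades. ERBB2 stayed high in SKR6LR (12.39 to 12.55) and CDH1, the E-cadherin gene that SKBR-3 is known to lack, was near the bottom of the scale in both lines, at 4.29, 4.41 and 4.14 in SKR6 and 4.35, 4.18 and 4.17 in SKR6LR.

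The change was broad. Of 19775 genes 9102 were called, which is 46% of them. Of these, 3818 (19.3% of all genes) were higher in SKR6LR and 5284 (26.7%) were lower. Small falls were common, while large changes were more often rises. Of the called genes 1500 were higher and 1583 lower by at least 1, but 223 were higher and 63 lower by at least 4, and 114 were higher and 26 lower by at least 5. The median difference over all genes was -0.058 and the middle 90% of genes ran from -1.32 to 1.47. In 89 genes the mean went from under 6 in SKR6 to over 10 in SKR6LR, and in 23 genes it went from over 10 to under 6. The 3 SKR6LR and 3 SKR6 arrays did not overlap in 11448 genes (57.9%), so a lack of overlap in a named gene is common. Rises made up 41.9% of the calls, and 51.8% when the arrays were normalised again with cyclic loess, which called 1682 higher and 1316 lower by at least 1, so the split into rises and falls depends on the scaling. Counts of gene lists below are to be read against the shares of all genes called higher (19.3%) and lower (26.7%). Those shares include genes near the bottom of the scale. Among 11860 genes with a known chromosome and a mean of at least 6, 25.6% were called higher and 40.5% lower. For lists made up mostly of such genes, 25.6% and 40.5% are the closer comparison, and a share of falls near 40.5% is not unusual. Without SKR6LR replicate 3, the array with the highest actin difference, 2977 genes were called higher and 4150 lower.

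**Figure D1:**
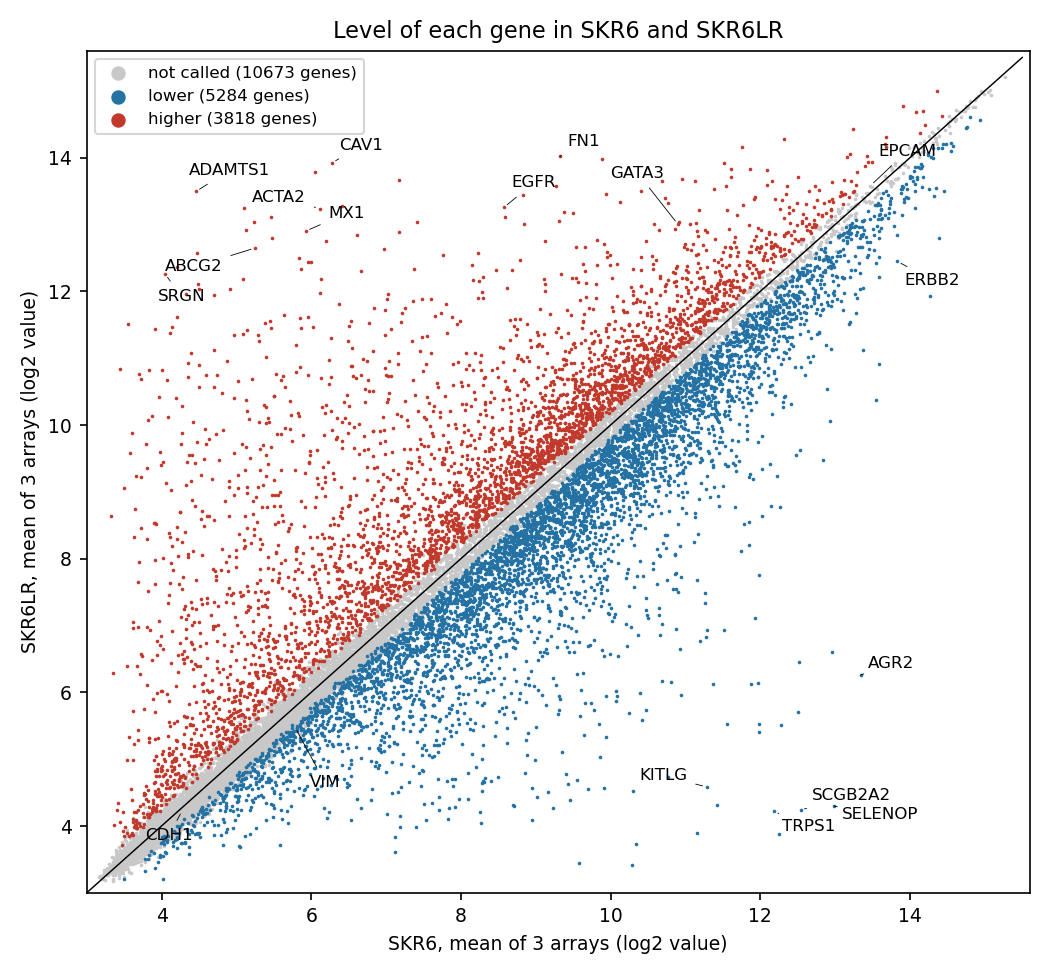
Mean log2 value of each of 19775 genes in SKR6 (horizontal axis) and SKR6LR (vertical axis), 3 arrays each, with red for genes called higher in SKR6LR (3818), blue for those called lower (5284) and grey for those not called (10673). The upper left holds genes near the bottom of the scale in SKR6 and high in SKR6LR, such as ADAMTS1 and SRGN. The lower right holds SELENOP and luminal genes such as SCGB2A2 and TRPS1.

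The largest measured rise was in ADAMTS1, a secreted metalloprotease of the extracellular matrix. Its values were 4.33, 4.51 and 4.54 in SKR6 and 13.50, 13.56 and 13.42 in SKR6LR, a difference of 9.03 (SE 0.146, n = 3 and 3, limma adjusted p = 1.45e-13). Every SKR6LR array was far above every SKR6 array. Values near the bottom of the scale, as in SKR6 here, carry no detection call, so such differences are not exact folds. SRGN, the core protein of the proteoglycan serglycin, went from 4.08, 4.10 and 3.96 to 11.70, 12.76 and 12.32. SPARC, a matrix glycoprotein, went from 4.70, 4.54 and 4.18 to 12.59, 12.56 and 12.58. The differences were 8.21 (SE 0.163, adjusted p = 7.4e-13) for SRGN and 8.11 (SE 0.182, adjusted p = 2.04e-12) for SPARC. Because the SE pools the 4 lines, it can understate the spread where SKR6LR arrays differ widely. For SRGN the SD was 0.533 in SKR6LR and 0.078 in SKR6. The largest rises and falls were picked among called genes whose SKR6LR and SKR6 arrays did not overlap. The lack of overlap in them was therefore set by the choice. The gap junction gene GJA1 rose by 7.97, the RNA-binding protein gene IGF2BP3 by 7.64, the annexin ANXA1 by 7.32 and the steroid dehydrogenase HSD3B1 by 7.33. CAPN6 rose by 8.16, RCN1 by 7.81, HTRA1, a serine protease, by 7.53, DSE by 7.52 and SLC38A4, an amino acid transporter, by 7.38.

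The efflux pump ABCG2 was among the largest rises. It read 5.38, 5.38 and 4.99 in SKR6 and 12.41, 12.86 and 12.67 in SKR6LR, a difference of 7.40 (SE 0.199, adjusted p = 8.96e-12). It was the exception among ABC transporters rather than the rule. Of 24 measured, 5 rose and 11 fell, with a median of -0.27. ABCC4 rose by 3.21 and the cholesterol pump ABCA1 by 1.73, whereas ABCC11 (-3.56) and ABCG1 (-3.01) fell. ABCB1, the classical multidrug pump, was not called and stayed low (difference 0.39).

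Several of the largest falls were in genes of the luminal secretory list, and others, such as SELENOP, were not on it. SELENOP, a secreted selenium carrier, read 13.01, 12.96 and 12.98 in SKR6 and 4.26, 4.23 and 4.41 in SKR6LR, a difference of -8.69 (SE 0.0832, adjusted p = 3.82e-15). SCGB2A2, the mammaglobin gene, read 12.53, 12.54 and 12.54 in SKR6 and 4.25, 4.31 and 4.16 in SKR6LR, a difference of -8.30 (SE 0.179, adjusted p = 1.49e-12). DSCAM-AS1, a long non-coding RNA of luminal breast cancer, read 12.26, 12.24 and 12.26 in SKR6 and 3.74, 3.76 and 4.14 in SKR6LR, a difference of -8.37 (SE 0.0836, adjusted p = 3.82e-15). In all 3 genes the transcript went from near the top of the scale to near its bottom. Of 21 luminal secretory and surface genes 13 fell, 5 rose and 3 were not called, with a median of -1.08. AZGP1 fell by 7.25, the melanophilin gene MLPH by 6.05 and PIP, the prolactin-induced protein, by 5.84, while SYTL2 rose by 4.29. The fatty acid hydroxylase CYP4Z1 fell by 7.11, CRISP3 by 6.87, the glutathione peroxidase GPX2 by 6.03 and keratin 4 (KRT4) by 6.04.

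Luminal transcription factors fell with them, with 1 marked exception. TRPS1, a GATA-type repressor, read 12.16, 12.20 and 12.19 in SKR6 and 3.88, 4.38 and 4.39 in SKR6LR, a difference of -7.97 (SE 0.101, adjusted p = 2.17e-14). FOXA1, a pioneer factor of luminal cells, read 10.28, 10.32 and 10.22 in SKR6 and 6.94, 7.12 and 6.88 in SKR6LR, a difference of -3.29 (SE 0.0813, adjusted p = 4.5e-12). GATA3 went the other way, from 10.91, 10.93 and 10.86 to 12.73, 13.24 and 13.03, a rise of 2.10 (SE 0.0941, adjusted p = 1.03e-09). The groups did not overlap in any of these genes. Of the 16 measured members 9 fell, 3 rose and 4 were not called, with a median of -1.17. SPDEF fell by 3.41, TFAP2B by 4.22, MYB by 3.25, ELF5 by 1.98 and XBP1 by 1.74. ESR1 (difference -0.17) and PGR (0.04) were not called.

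Several genes of the basal layer rose. Of 17 measured basal and progenitor markers 8 rose, 3 fell, among them SOX9 (-2.37), and 6 were not called, with a median of 0.15, and TP63 and KRT17 were not analysed here. Integrin alpha 6 (ITGA6), which anchors basal cells to laminin, read 4.06, 4.03 and 4.13 in SKR6 and 10.55, 10.56 and 10.90 in SKR6LR, a difference of 6.60 (SE 0.102, adjusted p = 1.08e-13). Keratin 14 (KRT14) read 4.57, 4.59 and 4.58 in SKR6 and 9.55, 10.38 and 9.88 in SKR6LR, a difference of 5.36 (SE 0.168, adjusted p = 3.74e-11). Its partner KRT5 rose by 2.65, from a mean of 5.55 to 8.20. The 6 measured members of the shorter list of basal epithelial markers all rose, with a median of 6.17. They were KRT5, KRT14, ITGA6, ACTA2, MYLK and CAV1, which are each named singly in the text, so the list adds no further genes. The median of this list against SKR6 was 5.72 to 6.44 on the SKR6LR arrays and 1.14 to 1.17 on the SKR6-Vector arrays. At the same time the luminal keratins KRT18 and KRT8 were not lost: KRT18 rose by 0.63 from 14.4, KRT8 by 0.45 and KRT19 fell by 0.94 from 14.4. KRT8 lost its call with SKR6-Vector as control (0.16) and without SKR6LR replicate 1 (0.31) or 2 (0.37). The luminal marker list as a whole split evenly, with 3 higher, 3 lower and 3 not called among 9.

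The contractile genes rose together. Of 20 contractile and actin-bundling genes 16 rose and 1 fell, with a median of 2.28. The list median against SKR6 was 2.19 to 2.36 on the SKR6LR arrays. It was 0.48 to 0.50 on the SKR6-Vector arrays and 0.19 to 0.27 on those of SKR6CA. Smooth muscle actin (ACTA2) read 6.02, 6.19 and 6.12 in SKR6 and 13.05, 13.40 and 13.27 in SKR6LR, a difference of 7.13 (SE 0.129, adjusted p = 3.49e-13). ACTA2 was also higher in SKR6-Vector, with a mean of 8.27 against 6.11 in SKR6, and its mean in SKR6CA was 6.89. The gamma smooth muscle actin ACTG2 rose by 7.65, the kinase MYLK by 5.75, transgelin (TAGLN) by 5.44, the LIM protein FHL2 by 6.24, tropomyosin TPM2 by 4.64 and myosin light chain MYL9 by 4.20. The late smooth muscle genes CNN1 (difference 0.18) and MYH11 (-0.11) were not called.

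The epithelial and mesenchymal lists did not move as blocks. EPCAM, the epithelial adhesion molecule, was 13.47, 13.45 and 13.50 in SKR6 and 13.73, 13.50 and 13.52 in SKR6LR (difference 0.11, adjusted p = 0.283). Of 35 junction and polarity genes 12 rose and 15 fell, with a median of -0.02: claudin 1 (CLDN1) rose by 3.46 and RAB25 fell by 3.50, while GRHL2, a factor that maintains epithelium, rose by 1.03 and ESRP1, an epithelial splicing factor, fell by 1.06. Claudin 1 lost its call with SKR6-Vector as control. Of 20 mesenchymal genes 5 rose (25%, against 19.3% of all genes) and 2 fell, with a median of 0.01. The 5 were SPARC, fibrillin 1 (FBN1, 5.62), fibronectin (FN1, 4.69), SNAI2 (0.79) and SNAI1 (0.45). Vimentin (VIM) read 6.09, 5.64 and 5.62 in SKR6 and 5.62, 5.62 and 5.21 in SKR6LR and was not called (adjusted p = 0.224). ZEB1 (-0.15), ZEB2 (-0.02), TWIST1 (0.04), CDH2 (-0.07) and AXL (-0.08) were not called either and lay under 6 in both lines.

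**Figure D2:**
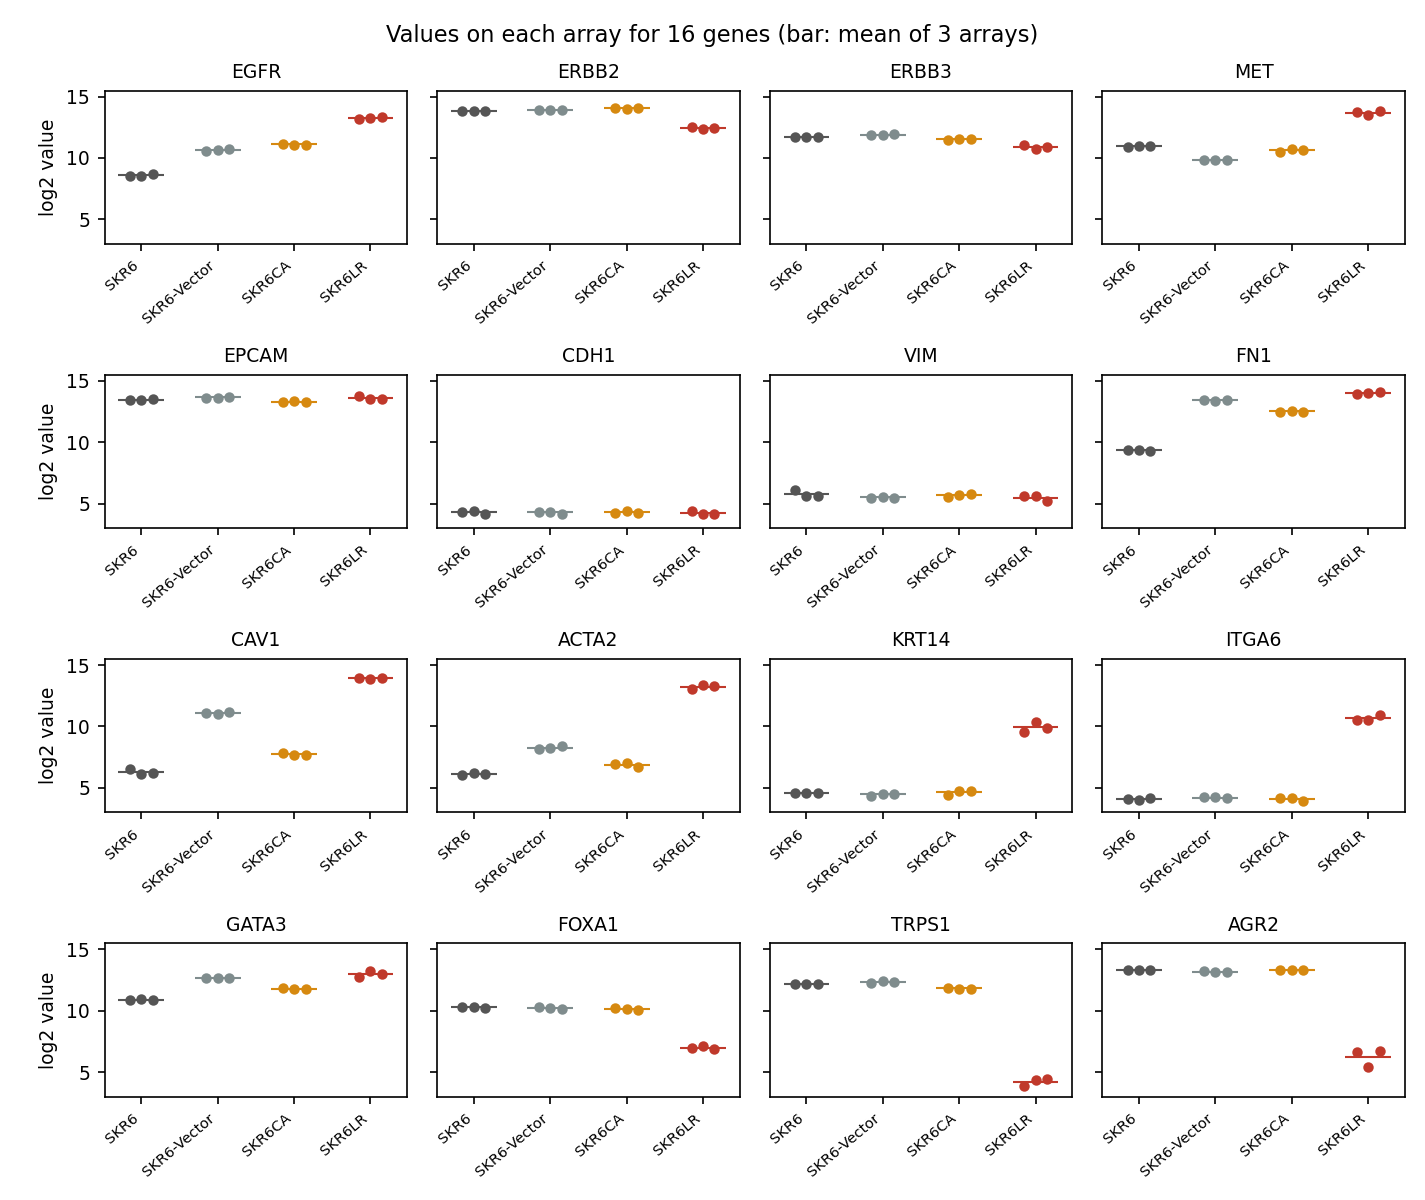
Log2 value of 16 genes on each of the 12 arrays, by line, with a bar at the mean of 3 arrays. KRT14 and ITGA6 are high in SKR6LR alone, and TRPS1, FOXA1 and AGR2 are low in SKR6LR alone. EPCAM, CDH1 and VIM are at similar levels in all 4 lines. FN1, CAV1, ACTA2 and GATA3 are also higher in SKR6-Vector than in SKR6.

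Genes of the matrix and of its receptors were mostly higher where they moved. Collagens had 9 rises and 2 falls among 22, led by the basement membrane chains COL4A1 (5.95) and COL4A2 (4.47), and laminins and hemidesmosome genes had 5 rises and 2 falls among 12, led by LAMC1 (4.88) and LAMB3 (3.65). Integrins had 8 rises and 2 falls among 19, led by ITGB8 (7.40) and ITGA6, with ITGA2 up by 2.77 and ITGA9 down by 2.82. Matrix proteases and their inhibitors had 15 rises and 2 falls among 26, with a median of 0.58. The inhibitors SERPINE2 (4.90) and TIMP3 (4.35), the plasminogen activators PLAT (4.09) and PLAU (2.34) and the receptor PLAUR (2.57) rose, while MMP1, MMP2, MMP3, MMP7 and MMP10 were not called. The caveolar coat genes CAV1 (7.64), CAV2 (7.79) and CAVIN1 (3.52) rose and the other 6 of that list were not called.

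Among receptors, the drug's targets moved apart. EGFR read 8.50, 8.56 and 8.66 in SKR6 and 13.21, 13.24 and 13.31 in SKR6LR, a difference of 4.68 (SE 0.0923, adjusted p = 7.4e-13), and ERBB2 fell by 1.38 and ERBB3 by 0.84. In the list of 17q12 neighbours of ERBB2, 13 of 17 measured genes fell as well and 1 rose, with a median of -0.52. MET, the hepatocyte growth factor receptor, read 10.93, 10.97 and 10.95 in SKR6 and 13.71, 13.51 and 13.84 in SKR6LR, a difference of 2.73 (SE 0.0951, adjusted p = 9.59e-11). EGFR and MET were higher on every SKR6LR array than on any SKR6 array. Of 38 other receptor tyrosine kinases and ligands 14 rose and 6 fell. The insulin receptor INSR (1.74) and IGF1R (0.74) rose, as did the ligands FGF1 (4.64), PDGFA (3.95) and PDGFC (2.87), while the KIT ligand KITLG fell by 6.70 and VEGFC by 2.02. MERTK had a difference of 3.09 on its representing probe set and of -0.087 when _x_at and _s_at probe sets, which can match several transcripts, were left out. Among Eph receptors and ephrins EPHA4 rose by 4.31 and EFNB2 by 3.02, and EPHB3 fell by 1.94.

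Downstream of the receptors, feedback genes were mixed. Of 30 genes of ERK and ERBB feedback 16 rose and 9 fell, with a median of 0.39. The phosphatase DUSP5 rose by 2.59, FOS by 2.57, ERRFI1, an inhibitor of EGFR, by 1.79 and MYC by 1.73. SPRY1 fell by 1.63, DUSP4 by 1.49 and SPRY4 by 1.30, while DUSP6 (0.11) and CCND1 (0.01) were not called. In the PI3K list 11 rose and 8 fell among 28. The adaptors GAB2 (3.94), IRS2 (3.11), GAB1 (2.55) and IRS1 (1.93), the catalytic subunit PIK3CD (3.03), the kinase SGK1 (4.77) and FOXO1 (2.21) rose, and AKT1 fell by 1.59, PIK3R3 by 2.04 and the mTOR inhibitor DEPTOR by 1.44.

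Of 25 Hippo pathway genes and YAP targets 18 rose and 5 fell, with a median of 0.90. VGLL3, a cofactor of TEAD factors, read 3.85, 3.77 and 3.86 in SKR6 and 10.96, 10.84 and 10.69 in SKR6LR, a difference of 7.0 (SE 0.102, adjusted p = 7.07e-14). The secreted targets CCN1 (2.67) and CCN2 (2.19), ANKRD1 (1.91), TEAD1 (1.66) and YAP1 (0.90) rose, and TEAD3 (-0.80) and FRMD6 (-0.84) fell. In the TGF-beta, BMP and ID list 15 rose and 10 fell among 33: ID4 rose by 6.87, the coreceptor TGFBR3 by 5.65, activin subunit INHBA by 3.05 and TGFB2 by 2.89, and TGFB3 fell by 3.35. In the WNT and Notch list 16 rose and 8 fell among 33. The Notch ligand JAG1 rose by 5.72, the WNT inhibitors DKK3 by 5.86 and SFRP1 by 3.79, and WNT5A fell by 6.77, from 12.29, 12.33 and 12.22 to 4.87, 5.86 and 5.80.

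Interferon-stimulated genes rose almost as a group. Of 36 effectors 31 rose and 1 fell, with a median of 3.42, against a median of -0.058 over all genes. IFI44L read 4.60, 4.90 and 5.24 in SKR6 and 11.01, 12.59 and 12.52 in SKR6LR, a difference of 7.13 (SE 0.342, adjusted p = 2.05e-09). HERC5, the ligase that attaches ISG15 to proteins, read 4.32, 4.35 and 4.51 in SKR6 and 10.10, 11.68 and 11.47 in SKR6LR, a difference of 6.69 (SE 0.261, adjusted p = 2.74e-10). IFIT1, which binds foreign RNA, read 5.52, 5.91 and 6.56 in SKR6 and 11.72, 12.86 and 12.71 in SKR6LR, a difference of 6.43 (SE 0.393, adjusted p = 2.06e-08). In each gene the SKR6LR arrays were all above SKR6 and replicate 1 was the lowest of them. The list median against SKR6 was 2.34 in SKR6LR replicate 1, 3.87 in replicate 2 and 3.88 in replicate 3. The member that fell was BST2, at 9.77, 9.83 and 9.96 in SKR6 and 7.91, 9.53 and 9.77 in SKR6LR (difference -0.78, SE 0.292, adjusted p = 0.0446). The BST2 call rests on SKR6LR replicate 1, since without it the difference was -0.20, and against SKR6-Vector BST2 was higher by 1.73.

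The promoters of these genes were searched for the interferon-stimulated response element, spelled as GAAA, any 2 bases and GAAA, on either strand, in the 250 bases before and 50 after the start. Sequences were those of RefSeq (GRCh38.p14) and were found for 29 of the 36 effectors. The element was in 22 of these 29 (75.9%), against 2.94% of the promoters of 15384 tested genes, 5.52% of those of 1177 genes called higher by at least 1 and 2.03% of those of 1280 called lower by at least 1. It was in 17 of 165 promoters of genes called higher by at least 4 (10.3%) and in 0 of 48 of those called lower by at least 4. Stretches of 100 bases are shown for 3 genes that rose and for BST2, 5′ to 3′ on the gene's strand, with matches, overlapping ones joined, in capitals.
IFI44L: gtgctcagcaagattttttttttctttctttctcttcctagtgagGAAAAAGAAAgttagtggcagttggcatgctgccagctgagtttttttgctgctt
HERC5: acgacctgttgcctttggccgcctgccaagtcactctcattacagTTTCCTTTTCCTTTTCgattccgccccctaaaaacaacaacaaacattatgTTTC
IFIT1: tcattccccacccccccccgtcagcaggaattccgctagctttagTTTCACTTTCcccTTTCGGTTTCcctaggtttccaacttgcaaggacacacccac
BST2: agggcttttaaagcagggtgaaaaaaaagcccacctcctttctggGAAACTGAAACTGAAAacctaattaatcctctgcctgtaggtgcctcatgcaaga
The IFI44L stretch is chr1:78620239-78620338 on the plus strand, and its first match begins 164 bases before the start. The HERC5 stretch is chr4:88456949-88457048 on the plus strand, with the first match 125 bases before the start, and its last 4 capitals open a further match. The IFIT1 stretch is chr10:89392462-89392561 on the plus strand, with the first match 116 bases before the start. The BST2 stretch is chr19:17405706-17405805 on the minus strand, with the first match 130 bases before the start, so the gene that fell holds the element as well. EPSTI1 (0.07), ISG20 (0.01) and LGALS3BP (-0.10) also held it and were not called. The effectors without a match to this spelling all rose: XAF1 (6.47), CMPK2 (6.46), HERC6, RSAD2, PARP9, OAS1 and SAMD9L. They do not all lack a related form. In XAF1, RSAD2 and OAS1 the promoter holds GAAA and GAAA with 1 base between, a spacing that was not searched for. Within the list this spelling thus did not separate genes that rose from the rest, and no such reading is made for the element in its other spacing. A match describes these letters and is not a measured binding site. The kappaB motif was in 7.14% of the promoters of genes higher by at least 1 and in 6.47% of all, and the AP-1 motif TGANTCA was in 6.20% and 5.84%. Among the 165 promoters of genes higher by at least 4 the kappaB motif was in 4.24% and the AP-1 motif in 3.03%, and among the 48 of genes lower by at least 4 they were in 10.4% and 12.5%.

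The machinery that senses and relays interferon moved less evenly. Of 25 sensors and transcription factors 14 rose and 4 fell, with a median of 0.32. The RNA sensors RIGI (3.76) and IFIH1 (2.30) and the factors IRF9 (2.69), IRF1 (2.07) and IRF7 (1.92) rose. The receptor chain IFNAR1 fell by 2.13, from 9.29, 9.40 and 9.32 to 7.40, 6.77 and 7.44. The ligand IFNB1 rose from 4.65, 4.47 and 4.74 to 5.19, 6.15 and 6.14 (difference 1.20, SE 0.199, adjusted p = 0.000208), and IFNL1 rose by 1.43. Of 22 guanylate-binding and antigen-loading genes 19 rose and 0 fell, with a median of 1.74. GBP1 rose by 4.50, the immunoproteasome subunit PSMB9 by 4.11 and the peptide transporter TAP1 by 2.93, while CIITA (0.07), the switch of class II genes, was not called. CD274, which encodes PD-L1, rose from 6.39, 6.49 and 6.70 to 11.26, 11.79 and 11.61, by 5.02 (SE 0.173, adjusted p = 8.98e-11).

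Cytokine genes rose in part. Of 38 measured 19 rose and 2 fell. CCL5 rose by 6.65, IL6 by 6.01, CCL2 by 4.96, IL1B by 3.44, TNF by 3.23 and LIF by 3.14, and CXCL9, CXCL5 and CCL20 were not called. Of 24 NF-kB subunits and regulators 12 rose and 1 fell. The inhibitor TNFAIP3 (3.57), NFKBIZ (2.98) and RELB (1.79) led the rises. The complement serine proteases C1S (4.54) and C1R (2.78) rose. CFB read 8.80, 12.10 and 11.25 in SKR6LR, and its difference of 4.46 was -0.19 without _x_at and _s_at probe sets.

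Genes of proliferation fell. Of 37 genes of the G1/S transition and DNA replication 31 fell and 1 rose, with a median of -0.99, and of 35 genes of G2/M and mitosis 33 fell and 0 rose, with a median of -1.04. The thymidine kinase TK1 read 11.94, 11.87 and 11.89 in SKR6 and 9.49, 8.94 and 9.17 in SKR6LR, a difference of -2.71 (SE 0.0959, adjusted p = 1.14e-10). FOXM1, a factor that drives mitotic genes, read 10.15, 10.07 and 10.09 in SKR6 and 8.60, 7.79 and 8.26 in SKR6LR, a difference of -1.89 (SE 0.147, adjusted p = 2.22e-07). The repressor E2F8 fell by 4.06 with a wide spread, at 7.28, 4.72 and 6.06 in SKR6LR. Every SKR6LR array was lower than SKR6 in these 3 genes, and replicate 2 was the lowest. The G2/M list median against SKR6 was -0.70, -1.36 and -1.02 in SKR6LR replicates 1, 2 and 3, and -0.48 to -0.40 on the SKR6-Vector arrays and -0.46 to -0.42 on those of SKR6CA. MKI67 fell by 1.41, NDC80 by 1.88 and RRM2 by 2.25, while E2F3 rose by 0.74. Of 14 cell-cycle inhibitors 7 rose and 5 fell: CDKN2B (4.23) and CDKN1C (3.18) rose, and CDKN1B fell by 2.06 and RB1 by 1.64. CDKN2B was also high in SKR6-Vector, at 10.18 against 5.71 in SKR6, and SKR6LR minus SKR6-Vector was -0.24 and not called.

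**Figure D3:**
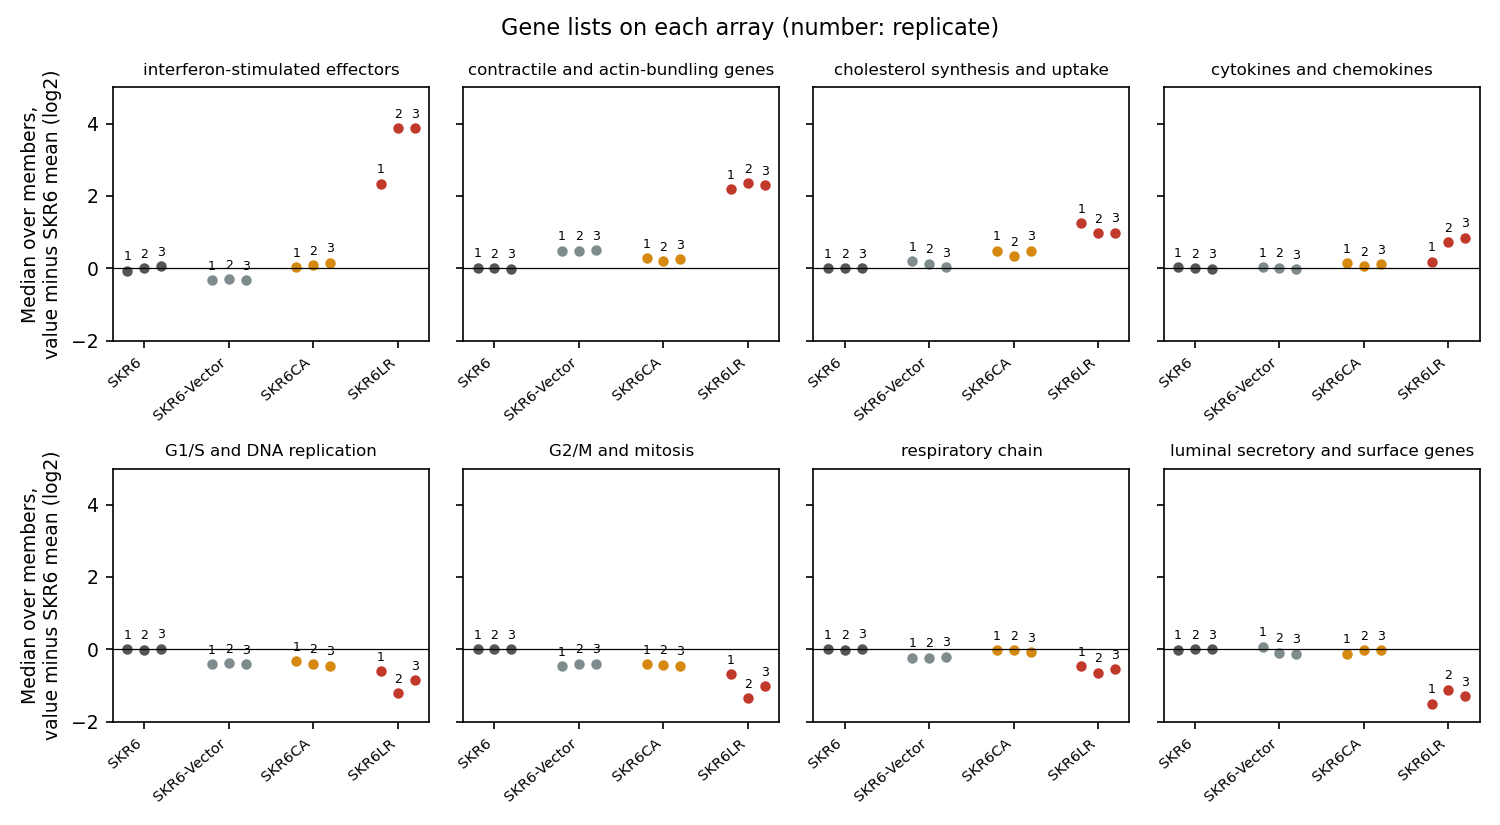
Median over the measured members of 8 gene lists, as the log2 value minus the SKR6 mean of each gene, on each of the 12 arrays, with the replicate number above each point. SKR6LR replicate 1 is the lowest of its line for interferon-stimulated effectors (2.34) and the closest to SKR6 for G2/M genes (-0.70), and the contractile list sits between 2.19 and 2.36 on all 3 SKR6LR arrays.

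Metabolic lists moved in different directions. Of 18 genes of cholesterol synthesis and uptake 13 rose and 3 fell, with a median of 1.09. STARD4 rose by 4.57, INSIG1 by 3.70, HMGCS1, an early enzyme of the pathway, by 2.68 and SQLE by 1.71. HMGCS1 read 9.05, 9.06 and 9.06 in SKR6 and 11.86, 11.55 and 11.78 in SKR6LR. Fatty acid genes split, with 11 rises and 12 falls among 28. ACSL4, which activates polyunsaturated fatty acids, rose by 5.31, lipoprotein lipase (LPL) by 3.14 and the desaturase SCD by 1.94, whereas SREBF1 fell by 1.13 and fatty acid synthase (FASN) by 1.08.

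The respiratory chain fell by little but almost throughout. Of 27 genes 26 fell and 0 rose, with a median of -0.55. NDUFA9, a subunit of complex I, read 12.33, 12.30 and 12.32 in SKR6 and 11.10, 11.03 and 11.15 in SKR6LR. The list medians against SKR6 were -0.48, -0.65 and -0.55 on the SKR6LR arrays. They were -0.23 to -0.20 on the SKR6-Vector arrays and -0.07 to -0.02 on those of SKR6CA, so a smaller fall was also present in SKR6-Vector. Of 24 proteasome genes 14 fell and 0 rose (median -0.29), but 9 fell and 2 rose with cyclic loess. The proteasome list was nearly as low in the other derivatives. Its median against SKR6 was -0.31 to -0.23 on the SKR6LR arrays, -0.19 to -0.17 on those of SKR6-Vector and -0.24 to -0.17 on those of SKR6CA. Of 23 ribosomal protein genes 2 fell and 0 rose (median -0.03), but 0 fell and 5 rose with cyclic loess. Glycolysis and hypoxia genes had 10 rises and 14 falls among 29, led by the glucose transporters SLC2A3 (6.28) and SLC2A10 (-6.61) and by carbonic anhydrase CA12 (-3.38). Aldo-keto, aldehyde and glutathione genes had 9 rises and 20 falls among 37, with a median of -0.31: NQO1 fell by 1.81 and the transferase MGST2 by 2.37, while heme oxygenase HMOX1 rose by 2.79 and the cystine carrier SLC7A11 by 2.60. Among cytochromes the retinoic acid hydroxylase CYP26A1 rose by 5.27 and CYP1A2 by 4.21, and CYP4X1 fell by 4.05.

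Of 32 apoptosis genes 11 rose and 9 fell. The BH3-only gene PMAIP1 rose by 4.30, from 6.71, 6.91 and 6.45 to 10.49, 11.60 and 10.88, and MCL1 rose by 0.91. The caspase CASP6 fell by 2.74, BID by 2.13, APAF1 by 1.81 and BAD by 1.79. BCL2L11, which encodes BIM (-0.14), and BCL2 (-0.14) were not called. Among stress genes ASNS (1.57) and PPP1R15A (1.72) rose, and DDIT3 (0.21) was not called. The insulin-like growth factor binding proteins IGFBP7 (5.66) and IGFBP3 (4.91) rose and IGFBP5 fell by 2.26. Of 23 S100 and annexin genes 9 rose and 7 fell, with ANXA6 down by 4.51 and S100A7 up by 4.10. Of 24 HOX genes 5 fell (20.8%, against 26.7% of all genes) and 0 rose. The 5 included 4 of the HOXC cluster, and HOXC6 fell from 10.27, 10.22 and 10.26 to 5.92, 5.35 and 5.79. Of 24 cancer-testis and imprinted genes 9 rose and 1 fell, with PEG3 up by 4.29 and MAGEB2 by 3.34.

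**Figure D4:**
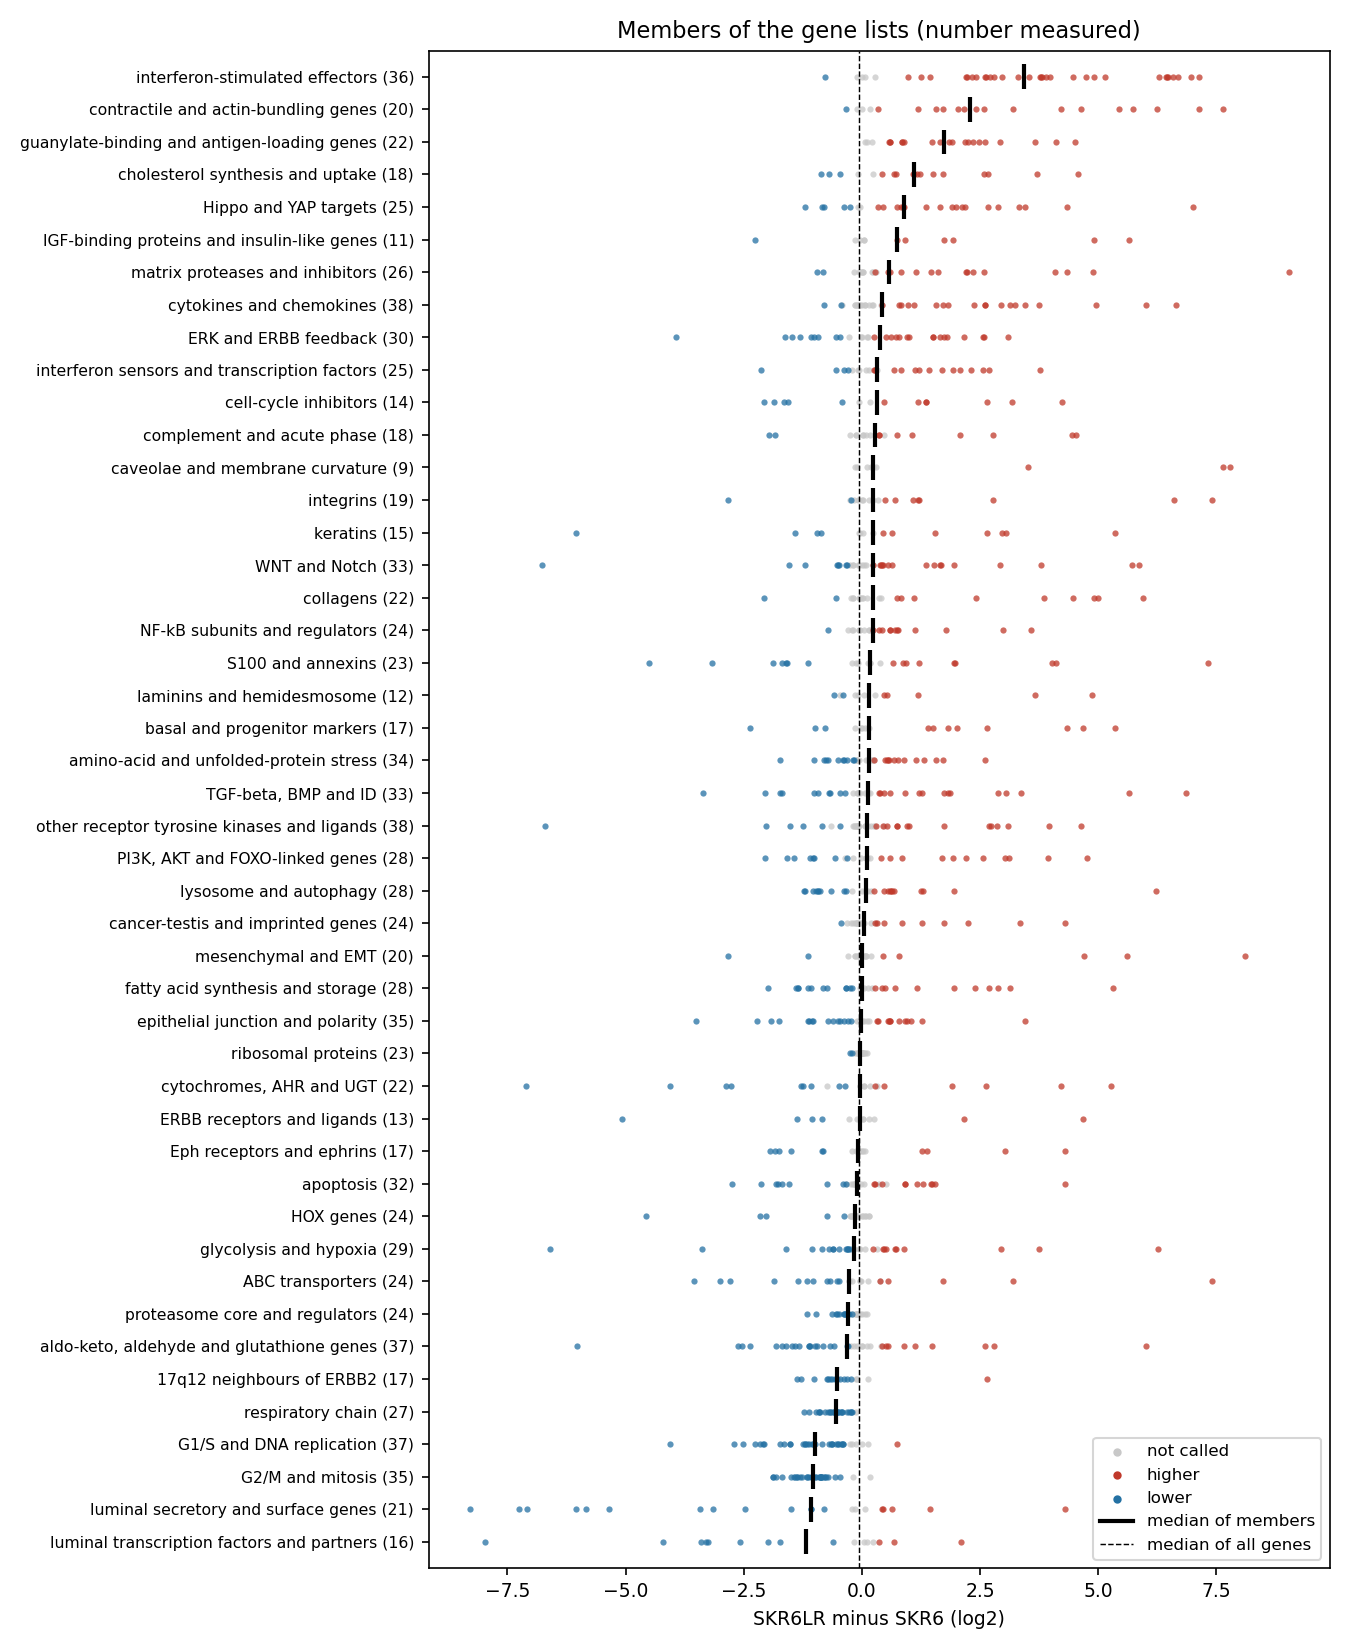
Difference SKR6LR minus SKR6 (log2) of each measured member of the gene lists, by list, with the number measured, in order of the list median (black bar). Red and blue points are called higher and lower, grey points are not called, and the dashed line is the median of all genes (-0.058), while cell type marker lists are not plotted. Among the lists shown, those of interferon-stimulated effectors (median 3.42) and contractile genes (2.28) lie at the top, and luminal and cell-cycle lists near the bottom.

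Markers of other cell types were read on the same arrays. Of 9 fibroblast markers COL3A1 (4.46, 4.57 and 4.69 in SKR6, 9.16, 9.74 and 9.56 in SKR6LR) and POSTN rose, and 7 were not called, among them DCN, LUM, PDGFRA and PDGFRB. POSTN rose by 0.58 but was at -0.26 without _x_at and _s_at probe sets. Of 7 endothelial markers CDH5 (3.83) and VWF (0.62) rose and PECAM1, KDR, TEK, TIE1 and CLDN5 were not called, and VWF had probe sets called in opposite directions (0.62 and -0.29) and lost its call when they were averaged. Of 6 leukocyte markers CD14 (1.72) and HLA-DRA (0.84) rose, and the pan-leukocyte gene PTPRC read 4.11, 4.23 and 4.16 in SKR6 and 4.30, 4.08 and 4.27 in SKR6LR.

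Genes that lie next to each other moved together in places. Gene order was taken from RefSeq, and the median difference was computed over windows of 15 neighbours with a mean of at least 6, 11538 windows in all. The middle 95% of windows ran from -0.81 to 0.45 around a median of -0.11. The lowest window ran from METTL23 to DNAH17 (-1.45), with 11 of 15 genes called lower, among them TMC6 (-3.42), AFMID (-3.06) and TK1. The second lowest was the histone cluster from H2BC3 to H4C8 (-1.41), in which 14 genes, all but HFE, were called lower, led by the histone genes H2AC8 (-2.23) and H1-2 (-1.96). The third ran from LXN to SERPINI1 (-1.39), with 12 lower and 2 higher. In the fourth, from EIF2B3 to MAST2 (-1.18), all 15 were called lower, with differences of -0.40 to -2.06.

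The highest window ran from PARP9 to HEG1 (2.28), with 9 higher and 3 lower. It holds the interferon-stimulated genes PARP9 (3.98), DTX3L (3.79) and PARP14 (5.24) beside MYLK (5.75) and HEG1 (4.24), so 2 of the lists above meet there. The window from SLC2A9 to SLIT2 (1.25) had 10 higher and 1 lower, and that from KANK1 to ERMP1 (1.06), which holds JAK2 (1.12) and CD274, had 13 higher and 1 lower. The window from GLA to NRK (1.13), on the X chromosome, had 12 higher and 2 lower and holds the BEX and TCEAL family: TCEAL9 rose by 8.14, BEX3 by 7.74, BEX4 by 3.98, BEX2 by 3.96 and TCEAL8 by 3.35. TCEAL9 read 5.24, 5.29 and 4.78 in SKR6 and 13.28, 13.20 and 13.26 in SKR6LR. With 25 neighbours the highest window was a zinc finger cluster from ZNF582 to ZNF544 (1.00), with 20 higher and 0 lower.

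Whole chromosomes differed as well. Among 198 genes that RefSeq places on chromosome 13 and that had a mean of at least 6, 135 were called lower (68.2%) and 33 higher, with a median of -0.70. The chromosome 13 median was -0.72, -0.75 and -0.65 on SKR6LR replicates 1, 2 and 3. It was 0.0093 for SKR6CA minus SKR6-Vector and -0.052 for SKR6-Vector minus SKR6. Over all chromosomes 40.5% of such genes were called lower, with a median of -0.12. On chromosome 1, 629 of 1218 genes were lower (51.6%, median -0.27) and on chromosome 12, 311 of 644 (48.3%, median -0.23). On chromosome 17, which holds ERBB2, 341 of 723 were lower (47.2%, median -0.22). Chromosomes 4, 5, 10 and 18 had more genes higher than lower, with 137 against 124 on chromosome 4 and 60 against 49 on chromosome 18. DNA copy number was not analysed here, and its part in these values was not tested.

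**Figure D5:**
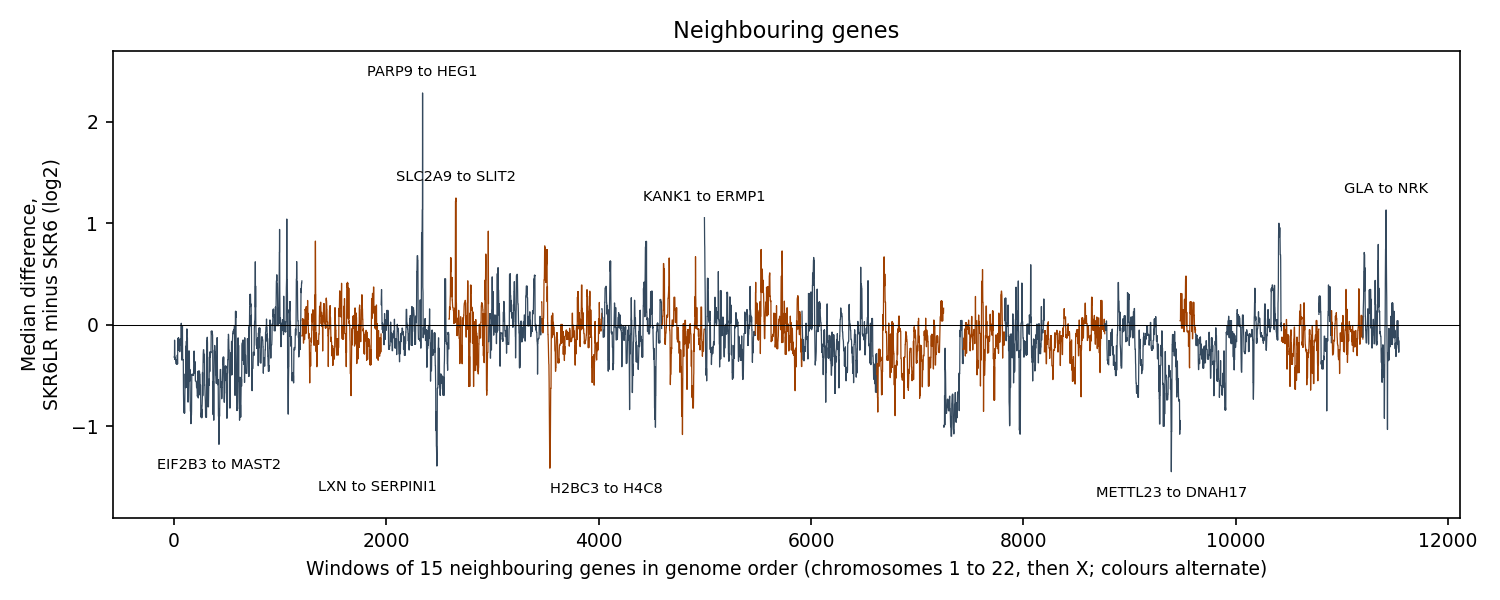
Median difference SKR6LR minus SKR6 (log2) over windows of 15 neighbouring genes in genome order, with colours alternating between chromosomes and the first and last gene given for the 4 highest and 4 lowest windows. The stretch of windows near -0.9 to the right of the middle is chromosome 13, and the highest peak, at 2.28, is the window from PARP9 to HEG1.

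The change in SKR6LR was set against that of another derivative of SKR6, active p65 in SKR6CA against SKR6-Vector, which shares no array with it. The difference between both effects was called for 8680 genes (43.9%), with the SKR6LR effect above in 3844 and below in 4836. Of the 3818 genes higher in SKR6LR 955 (25%) were also called higher with active p65, which is 30.9% of the 3095 genes called higher there, while 1026 (26.9%) were called lower with active p65. Over all genes 15.7% were called higher and 19% lower with active p65. Of the 5284 genes lower in SKR6LR 1686 (31.9%) were also lower with active p65, which is 44.8% of 3762, and 1199 (22.7%) were higher. The differences furthest below the p65 effect were in DSCAM-AS1 (-8.13), AZGP1 (-7.73), TRPS1 (-7.45) and KITLG (-7.23), and AGR2 followed at -7.21. Those furthest above were in CAV1 (11.02), EDIL3 (10.56), CAPN6 (9.74), CAV2 (9.08) and ADAMTS1 (9.0). CAV1 also fell with active p65, by 3.38, from a mean of 11.10 in SKR6-Vector to 7.73 in SKR6CA. Its mean in SKR6 was 6.28, so SKR6CA was still above the parent. SKR6-Vector was also above SKR6 in EDIL3 (7.47 against 4.11), CAPN6 (5.97 against 4.21) and CAV2 (8.59 against 5.13), which adds to their differences here. In ADAMTS1 the means were 4.45 and 4.46.

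Some genes were higher in SKR6-Vector than in SKR6 too, so the choice of control matters for them. FN1 had means of 9.32 in SKR6, 13.40 in SKR6-Vector, 12.51 in SKR6CA and 14.02 in SKR6LR. CDH5 had means of 5.14, 8.10, 8.22 and 8.98 in the same order. By contrast, ITGA6 had means of 4.07, 4.20, 4.07 and 10.67, and ADAMTS1 was at most 4.49 as a mean in the 3 other lines. Some falls were shared in part too. In the same order AZGP1 had means of 11.15, 8.65, 9.13 and 3.90 and SCGB2A2 of 12.54, 10.88, 9.29 and 4.24. TRPS1, at 12.18, 12.33, 11.82 and 4.22, was low in SKR6LR alone. The luminal secretory list median against SKR6 was -0.13 to 0.08 on the SKR6-Vector arrays and -0.13 to -0.02 on those of SKR6CA. In 3199 genes all SKR6LR arrays were above all 9 other arrays, and in 4366 genes they were below all of them.

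The SKR6LR replicates differed among themselves in a set of genes. The range over the 3 arrays was at least 1 in 509 genes in SKR6LR and in 1 gene in SKR6. Replicate 1 was the farthest array in 314 of the 509, replicate 2 in 185 and replicate 3 in 10. The widest ranges were in CFB (3.31), PDZK1IP1 (3.22), CMPK2 (3.12), HSPA6 (2.90) and CXCL8 (2.88). CMPK2, an interferon-stimulated kinase, read 8.46, 11.59 and 11.22, and the chemokine CXCL8 read 7.48, 10.36 and 9.47. PDZK1IP1 read 5.65, 8.86 and 7.81, and the heat shock gene HSPA6 read 6.08, 8.98 and 6.57. HSPA6 was called (1.18, adjusted p = 0.0485) but had a difference of 0.30 without SKR6LR replicate 2. The cause of the spread was not tested.

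How far a gene's value rests on its probe set was examined in 10523 genes with at least 2 probe sets of their own. In 2264 all were called in 1 direction, in 4339 some were called in 1 direction and others were not, in 3557 none was called and in 363 they were called in opposite directions. Of 1933 such genes called by at least 1 on the representing probe set, 37 had another called the other way. The widest gaps were in GAS1 (7.07 and -0.28), LOXL2 (4.30 and -0.27), AKAP12 (4.20 and -0.22), GDF15 (4.0 and -0.30) and PNKD (1.85 and -2.28), so no direction is given for these 5 genes. FGFR2 had probe sets called at 2.80 and -0.23 and is given no direction either.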

How the data were processed

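Per the labels' protocols, RNA was copied from a T7 oligo-dT primer, and the biotin-labelled product was put on the arrays. The deposited values are log2 values; the submitters' processing notes name RMA and limma, with no versions, and the sources used here do not give their roles or parameters. Depth does not apply to arrays, and the number of arrays limits the precision. Probe sets were named by a platform annotation of 2016, with symbols updated through RefSeq GRCh38.p14: 41097 of 54675 had 1 gene, 1801 several and 11777 were unnamed here. No filter on low values was used.

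Here limma 3.58.1 in R 4.3.3 fitted a mean for each of the 4 lines over all 12 arrays, with 1 weight per line (arrayWeights) and eBayes, and the Benjamini-Hochberg adjustment ran over 19775 genes. On simulated data the share of false calls was near its nominal level under this model and exceeded it where few genes changed and each gene had its own spread in each line. Lists, windows and motifs were described with counts and medians only, in Python 3.11.15. Of 1222 listed symbols 1114 were measured.

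The genes, lists and the weights were chosen with earlier results of these data known. Named genes were EGFR, ERBB2, ERBB3, CDH1 and CAV1, and up to 4 called members per list and direction. The 20 largest rises and falls among called genes whose SKR6LR and SKR6 arrays did not overlap were named too. So were the 5 extremes of spread, of the difference from active p65 and of gaps between probe sets, with the ends and extremes of the windows. Other list members, among them those not called, and the chromosome medians were chosen after their values were seen. The alternatives were other weights, a replicate block, cyclic loess, centring on the median, single arrays left out, a trend, a filter on low values, other probe sets, SKR6-Vector as control, an adjusted p under 0.01 and other windows. Same-numbered replicates did not deviate together (r of -0.029 to 0.023).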

Additional observations from a re-analysis of the deposited data

Results flagged for a closer look

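Probe sets without a gene name here also differed between the lines. Of 11721 tested, 473 were called higher in SKR6LR by at least 1 and 306 lower. These calls came from a separate fit of the same model, with its own weights and adjustment. This was a signal in probe sets that the comparison of genes does not use. The probe set 230356_at read 3.88, 3.76 and 3.87 in SKR6 and 11.74, 10.83 and 11.31 in SKR6LR, a difference of 7.46. The probe set 224354_at read 12.26, 12.44 and 12.38 in SKR6 and 3.99, 3.71 and 4.28 in SKR6LR, a difference of -8.37.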

How the results depend on the processing

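Counts of called genes stayed within 1.5 times of those reported under every alternative run. Leaving out 1 array gave 2977 to 3780 genes higher and 4150 to 5270 lower, and 3122 to 3804 above and 3963 to 4839 below the active p65 effect. With the replicate block, which has no basis in the data as pairing, 3806 were higher and 5284 lower. Of 355 named genes 310 kept direction and call in every setting that tested them. A mean of at least 6 tested 317 of them, and leaving out _x_at and _s_at probe sets 273. Differences changed sign for 9 without _x_at and _s_at probe sets: AKAP12 (-0.22), CFB (-0.19), EPHA1 (0.10), GAS1 (-0.28), GDF15 (-0.30), IFNAR2 (0.0024), KANK1 (-0.022), MERTK (-0.087) and POSTN (-0.26). They changed sign for 7 with SKR6-Vector as control: BMP7 (-1.82), BST2 (1.73), CDKN2B (-0.24), FGFR4 (0.11), LAMB1 (-0.36), PMVK (0.051) and TEAD4 (0.0026). Of 1734 recomputed list counts 126 moved beyond 1.5 times, 100 of them from counts of 5 or fewer. The lowest and highest windows were -2.12 and 2.42 with 10 neighbours, -1.04 and 1.00 with 25, and -1.41 and 1.46 over all measured genes. The windows differ by construction; other causes were not tested. Values near the bottom of the scale carry no detection call, so small differences there are limited by signal over background.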
